A study of Mus musculus with 80 samples.

Results

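A set of 9 genes that mark megakaryocytes and the platelets they shed was followed through the growth plate, the calvaria and the cortical bone of female C57BL/6J mice at P21 (21 days). The set was given by name as Pf4, Ppbp, Itga2b, Gp1bb, Gp9, Gp5, Gp6, Tubb1 and Treml1, and 8 of them stood among the 14688 genes of the count table. Tubb1 was not analysed here. The growth plates were tibial, the cortical bone was femoral with the diaphyseal marrow washed out and the periosteum and endosteum kept, and the calvaria was a frontal bone with its periosteum and suture mesenchyme. Each tissue was taken from wild-type mice (WT), from mice with a constitutive deletion of Mmp2 (MMP2-/-) or of Mmp9 (MMP9-/-), and from mice lacking both genes (MMPdKO). The growth plate gave 7 WT, 6 MMP2-/-, 7 MMP9-/- and 7 MMPdKO libraries. The calvaria gave 7 libraries of each genotype, and the cortical bone gave 7 WT, 5 MMP2-/-, 7 MMP9-/- and 6 MMPdKO libraries. The 80 libraries came from 33 mice, since many mice gave more than 1 tissue. The deletions were constitutive, so that no cell type was targeted.

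Megakaryocytes are large, polyploid cells of the bone marrow that mature beside its vessels and release platelets into the blood. They share a progenitor with the erythroid lineage, and transcription factors of the GATA and ETS families drive both their receptors and their granule proteins. Platelets carry mRNA inherited from the megakaryocyte, so a bulk bone library can hold these transcripts from marrow and from blood. In bulk RNA, fewer megakaryocytes or platelets in a sample and less of these mRNAs per cell cannot be told apart.

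The members fall into 3 roles. Pf4 and Ppbp encode chemokines stored in the alpha granules, and they lie side by side on the + strand of chromosome 5 (GRCm38), Ppbp at 90768518 to 90770063 and Pf4 at 90772435 to 90773383, with 2371 bases between them. Itga2b (chromosome 11, 102453297 to 102470122, - strand) encodes the alpha chain of the fibrinogen receptor of platelets. Gp1bb (chromosome 16, 18620317 to 18622403, - strand), Gp9 (chromosome 6, 87778072 to 87779768, + strand) and Gp5 (chromosome 16, 30307685 to 30310779, - strand) encode subunits of the receptor for von Willebrand factor. Gp6 (chromosome 7, 4363965 to 4397744, - strand) encodes the collagen receptor, and Treml1 (chromosome 17, 48359916 to 48367176, + strand) encodes a receptor stored in the alpha granules. Tubb1 encodes the beta tubulin of the platelet's marginal band. Gp1bb overlaps Sept5 on the same strand, so reads of the 2 genes may have been split by the counting, and its values are uncertain.

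The promoters of the 4 members that passed a test between WT tissues are shown from 250 bases before to 50 bases after the RefSeq start (GRCm38.p6), 5' to 3' on the strand of the gene. Capitals mark the GATA letters (AGATAA or TGATAA, on either strand) and the ETS letters (AGGAAG, on either strand), which do not overlap here.
Pf4 (chr5:90772185-90772484, + strand): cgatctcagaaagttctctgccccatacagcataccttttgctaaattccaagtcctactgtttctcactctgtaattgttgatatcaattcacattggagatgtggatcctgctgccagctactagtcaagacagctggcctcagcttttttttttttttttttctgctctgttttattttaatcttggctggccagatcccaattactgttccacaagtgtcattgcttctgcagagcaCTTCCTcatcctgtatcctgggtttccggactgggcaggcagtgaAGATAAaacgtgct
Itga2b (chr11:102469834-102470133, - strand): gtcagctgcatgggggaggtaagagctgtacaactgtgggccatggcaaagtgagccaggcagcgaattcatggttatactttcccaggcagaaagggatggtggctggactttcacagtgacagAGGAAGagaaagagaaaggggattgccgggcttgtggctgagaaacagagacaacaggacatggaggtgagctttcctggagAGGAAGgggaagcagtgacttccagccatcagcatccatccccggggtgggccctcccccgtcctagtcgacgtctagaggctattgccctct
Gp9 (chr6:87777820-87778119, + strand): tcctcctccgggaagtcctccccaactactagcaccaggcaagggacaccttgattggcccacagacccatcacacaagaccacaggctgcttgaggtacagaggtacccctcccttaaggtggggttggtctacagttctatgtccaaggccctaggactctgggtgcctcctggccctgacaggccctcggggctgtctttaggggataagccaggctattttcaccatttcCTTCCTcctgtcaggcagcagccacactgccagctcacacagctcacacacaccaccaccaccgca
Treml1 (chr17:48359666-48359965, + strand): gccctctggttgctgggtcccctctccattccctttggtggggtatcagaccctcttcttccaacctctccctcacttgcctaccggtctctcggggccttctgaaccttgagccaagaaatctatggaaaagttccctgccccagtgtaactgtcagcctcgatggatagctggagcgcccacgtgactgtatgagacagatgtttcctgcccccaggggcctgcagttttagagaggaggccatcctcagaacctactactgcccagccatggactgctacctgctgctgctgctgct
Promoters were found for all 9 genes. The GATA letters stood in 3 of the 9 promoters (Pf4, Gp5 and Gp6) and in 18.6% of all 32851 promoters of the same length. The ETS letters stood in 6 of the 9 promoters (Pf4, Itga2b, Gp1bb, Gp9, Gp5 and Tubb1) and in 35.4% of all promoters. Both sets of letters stood together in 2 of the 9 (Pf4 and Gp5) and in 6.65% of all. The RUNX letters TGTGGT were in 1 of the 9 (Gp9) against 16.8%, and the core TGAGTCA shared by AP-1 and NF-E2 was in 0 of the 9 against 5.2%. Such a match is a description of the letters in this window.

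The libraries held 114408 to 1921698 counts (median 651164.5), and an MMP9-/- cortical bone library (replicate 1) was the shallowest. A count of 0 allowed a level of up to 1.56 to 26.2 CPM in a library, taking 3 counts as the limit. These limits were taken on total counts before TMM scaling, unlike the levels below. CPM is the count scaled to the size of the library, here after TMM scaling over all 80 libraries, and 3' tags are not divided by transcript length, so levels are compared between libraries and not between genes. In WT libraries Mmp2 lay at 219 to 944 CPM, against 4.15 to 48.3 CPM in all MMP2-/- and MMPdKO libraries. Mmp9 lay at 625 to 3770 CPM in WT and at 80.4 to 1010 CPM in all MMP9-/- and MMPdKO libraries, the highest of these being in the MMP9-/- growth plate. The 8 chondrocyte markers summed to a median of 23700 CPM in the WT growth plate, 1220 CPM in the WT calvaria and 1590 CPM in the WT cortical bone.

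Pf4, Itga2b and Gp9 had at least 1 count in all 80 libraries. Median counts over the 80 libraries were 144 for Pf4, 52 for Itga2b, 38 for Gp9, 14 for Gp5, 12 for Treml1 and 7 for Gp1bb. Ppbp and Gp6 both had a median count of 1. Ppbp was at 0 in 27 of 80 libraries and Gp6 at 0 in 25 of 80. Of the 27 growth plate libraries, 14 had no Ppbp count and 12 had no Gp6 count. Differences of Ppbp and Gp6 were mostly not detectable at this depth. Ppbp passed the filter on low counts, 15 or more raw counts in 1 or more libraries of the 2 groups, in 2 of the 12 comparisons below, and Gp6 passed in none. The other 6 genes passed in every comparison, except Gp1bb in MMPdKO against WT growth plate.

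In the WT mice all 6 tested members were ordered alike by their mean: cortical bone highest, calvaria between, growth plate lowest. Pf4 averaged 497 CPM ± 212 (SD, n = 7) in the cortical bone, 275 ± 42.6 CPM in the calvaria and 165 ± 57.3 CPM in the growth plate. Its libraries spanned 199 to 741 CPM in the cortical bone (median 492), 198 to 319 CPM in the calvaria (median 282) and 92.0 to 248 CPM in the growth plate (median 168). Of the 7 cortical bone libraries, 5 lay above every calvaria library, and the other 2, at 199 and 270 CPM, lay within the calvaria range.

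Itga2b spanned 39.0 to 244 CPM in the WT cortical bone (median 167), 86.7 to 139 CPM in the calvaria (median 112) and 25.7 to 88.6 CPM in the growth plate (median 64.7). Gp9 spanned 35.5 to 153 CPM in the cortical bone (median 119), 42.1 to 109 CPM in the calvaria (median 84.7) and 21.4 to 68.3 CPM in the growth plate (median 44.0). Treml1 spanned 17.7 to 74.5 CPM in the cortical bone (median 49.9), 12.1 to 37.8 CPM in the calvaria (median 33.6) and 5.14 to 27.7 CPM in the growth plate (median 15.8). For all 4 genes the ranges of neighbouring tissues overlapped. The lowest cortical bone value of Pf4, Itga2b, Gp1bb, Gp9, Gp5 and Treml1 came from the same library, WT replicate 5.

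Gp5 averaged 38.4 ± 19.3 CPM in the cortical bone, 28.7 ± 8.79 CPM in the calvaria and 13.4 ± 10.5 CPM in the growth plate of WT mice. Gp1bb averaged 19.1 ± 7.40, 12.8 ± 7.56 and 7.34 ± 3.42 CPM in the same order. Ppbp stayed at 0 to 11.5 CPM in these 21 libraries, and Gp6 had 0 to 12 counts. Over all 12 groups, no 2 groups next to each other in the order of means differed by more than the larger of their SDs, for any of the 8 genes. Neighbours among 12 ordered means lie close by construction, so this does not compare groups further apart. The WT cortical bone took rank 1 to 3 of the 12 groups for every gene. The growth plate took ranks 8 to 12 in WT, 6 to 10 in MMP2-/- and 10 to 12 in both MMP9-/- and MMPdKO, and the MMP2-/- calvaria reached rank 11 for 1 gene.

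**Figure D1:**
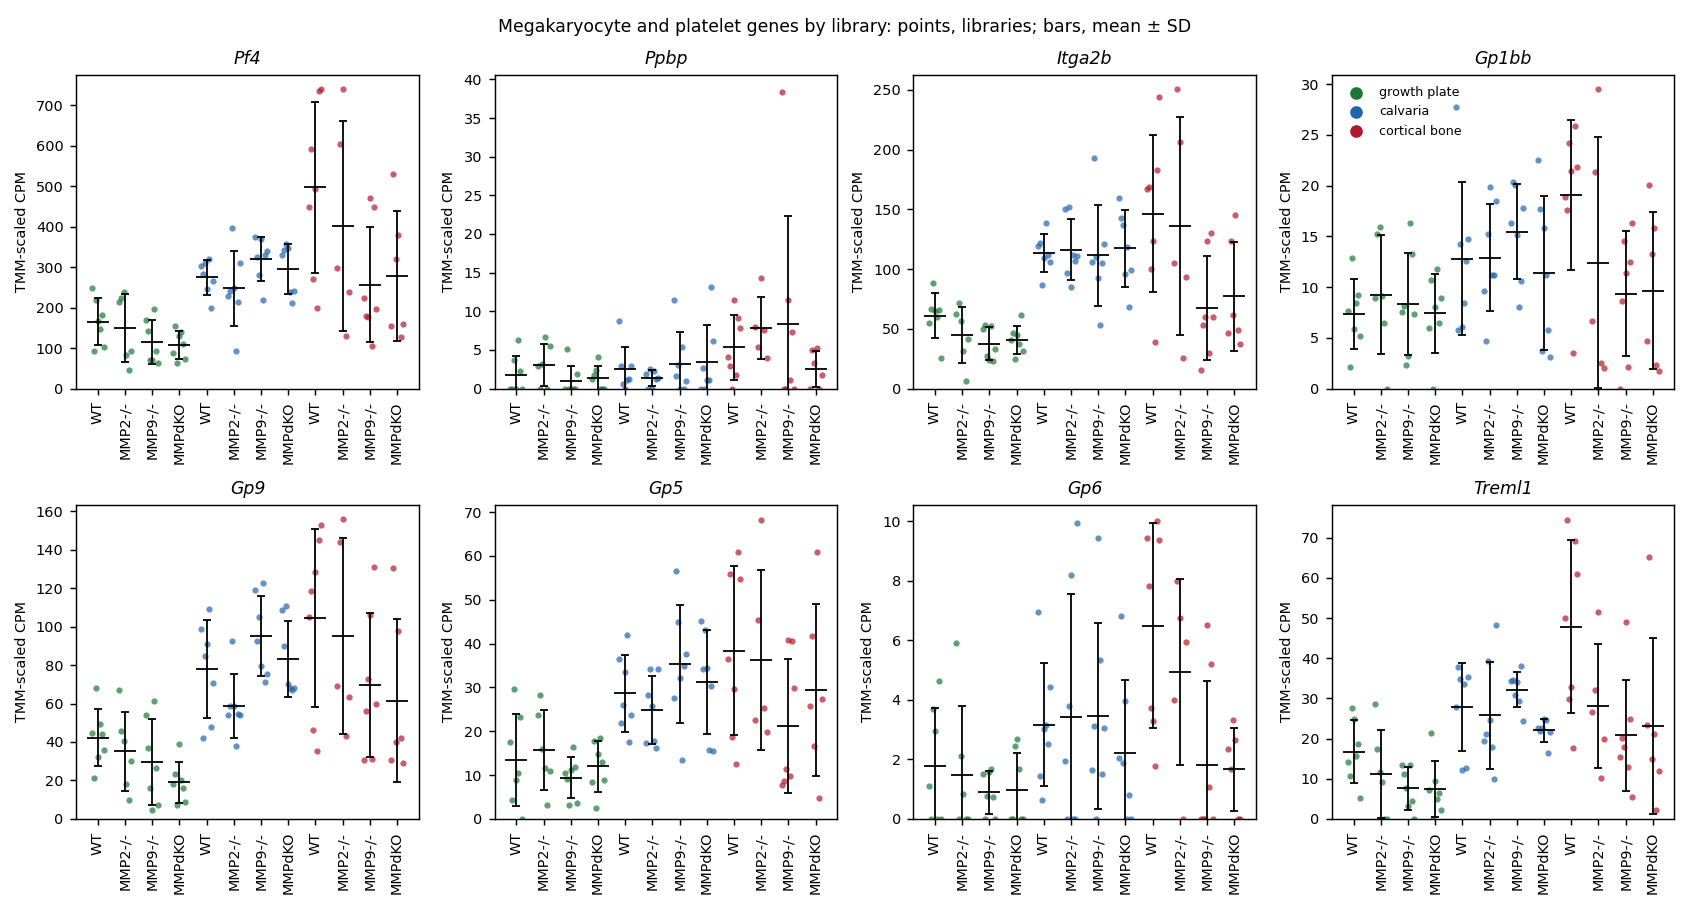
Level of each of the 8 genes (TMM-scaled CPM, linear axes from 0) in every library of the 12 groups, coloured by tissue, with the mean and SD of each group as bars. The growth plate groups have the lower means for most genes, and the cortical bone libraries spread most widely, as for Pf4 between 199 and 741 CPM in WT.

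Differences were tested gene by gene with the quasi-likelihood test of edgeR, with Benjamini-Hochberg adjustment over all genes tested. A member passed at an adjusted p under 0.05. The 3 comparisons of WT tissues share their WT groups, and within each tissue the 3 genotypes share their WT libraries.

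Between the growth plate and the cortical bone of WT mice, 4 of 6 tested members passed and all 4 were lower in the growth plate. Of all 9491 genes tested, 2.21% passed and 0.611% passed as lower. Pf4 was lower by 2.93-fold (log2 -1.55, SE 0.272, adjusted p = 0.00787) and lay below the cortical bone median in 7 of 7 growth plate libraries. Treml1 was lower by 2.81-fold (log2 -1.49, SE 0.305, adjusted p = 0.0143), Gp9 by 2.43-fold (log2 -1.28, SE 0.284, adjusted p = 0.0236) and Itga2b by 2.37-fold (log2 -1.24, SE 0.280, adjusted p = 0.0251). Gp1bb (log2 -1.31, adjusted p = 0.0538) and Gp5 (log2 -1.45, adjusted p = 0.0661) had values of the same size and did not pass. The median over the 6 members was -1.38 on the log2 scale, beside -0.01 over all genes. None of the 6 members had groups free of overlap.

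These 4 calls did not hold in every fit. With 6 mice that gave both tissues, none passed with the mouse as a block (adjusted p of Pf4 = 0.114) nor without the block in the same libraries (Pf4 adjusted p = 0.0546). None passed in the mice whose label ends in 21, which left out 1 growth plate and 2 cortical bone libraries (Pf4 adjusted p = 0.0706). Leaving out growth plate replicate 4 or cortical bone replicate 1, 2, 6 or 7 left 2 calls in each case. Over the 14 fits that left out 1 library, Pf4 and Treml1 passed in 14, Gp9 in 8 and Itga2b in 6. DESeq2 called all 6.

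Neutrophil markers moved in the same direction. Of 15 tested, 8 were lower in the growth plate than in the cortical bone, with a median of -1.06 on the log2 scale. Their summed level was 3420 to 9660 CPM in the growth plate and 6120 to 18400 CPM in the cortical bone, and none of the 15 was at 0 in either group. With the mean neutrophil level of each library as a covariate, none of the members passed, and Pf4 then differed by -0.61 on the log2 scale (adjusted p = 0.756). The number of all genes passing fell from 210 to 5 in that fit. Of 14 erythroid markers, 1 was lower (median -0.40). The part of these cells in the result was not tested.

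Between the growth plate and the calvaria of WT mice, 3 of 6 tested members passed and all 3 were lower in the growth plate. Of all 9869 genes, 5.05% passed and 2.14% passed as lower. Itga2b was lower by 1.84-fold (log2 -0.88, SE 0.174, adjusted p = 0.00338), and 6 of 7 growth plate libraries lay below every calvaria library. Gp9 was lower by 1.80-fold (log2 -0.85, SE 0.228, adjusted p = 0.0342) and Pf4 by 1.65-fold (log2 -0.72, SE 0.183, adjusted p = 0.0243). Gp5 (log2 -0.99), Gp1bb (log2 -0.75) and Treml1 (log2 -0.73) did not pass, with adjusted p of 0.143, 0.310 and 0.183. The median over the 6 members was -0.80, beside 0.00351 over all genes.

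Of 15 neutrophil markers, 9 had lower and 6 higher values in the growth plate than in the calvaria (median -0.28), and none passed. The part of neutrophils in the result was not tested, and with the neutrophil covariate Itga2b and Gp9 still passed, while Pf4 stood at -0.65 (adjusted p = 0.0512). Of 14 erythroid markers, 13 were lower in value and 2 passed (Hba-a1 and Alas2), and their summed level was 56800 to 146000 CPM in the growth plate against 114000 to 176000 CPM in the calvaria. The part of erythroid cells was not tested. With the mouse as a block over 6 mice, Itga2b and Pf4 passed and Gp9 did not (adjusted p = 0.0914, and 0.0503 when those libraries were fitted unblocked). In a fit of all 80 libraries none passed (Itga2b adjusted p = 0.0905), and without calvaria replicate 1 only Itga2b passed. Over the 14 fits that left out 1 library, Itga2b passed in 14, Pf4 in 13 and Gp9 in 7.

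Between the cortical bone and the calvaria of WT mice, 1 of 6 tested members passed. Of all 9874 genes, 5.37% passed and 1.79% passed as higher in the cortical bone. Pf4 was 1.77-fold higher in the cortical bone (log2 0.83, SE 0.227, adjusted p = 0.0383). Treml1 had a log2 value of 0.75 (SE 0.283, adjusted p = 0.132), and Itga2b, Gp1bb, Gp9 and Gp5 had values of 0.35, 0.55, 0.42 and 0.46 with adjusted p of 0.389 to 0.456. The call of Pf4 was lost in most other fits, among them the fits with the mouse as a block (adjusted p = 0.594) and of the same libraries without it (adjusted p = 0.315), without the mice whose label ends in 20 (adjusted p = 0.489) and with the neutrophil covariate (log2 0.06, adjusted p = 0.944). With that covariate 3 of the 6 members turned sign, Gp9 to -0.54, Gp5 to -0.38 and Itga2b to -0.21, and none passed. It held in 3 of the 14 fits that left out 1 library. Of 15 neutrophil markers, 6 were higher in the cortical bone (median 0.81), whereas 0 of 14 erythroid markers passed in edgeR (median -0.07), and the part of neutrophils in the result was not tested.

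**Figure D2:**
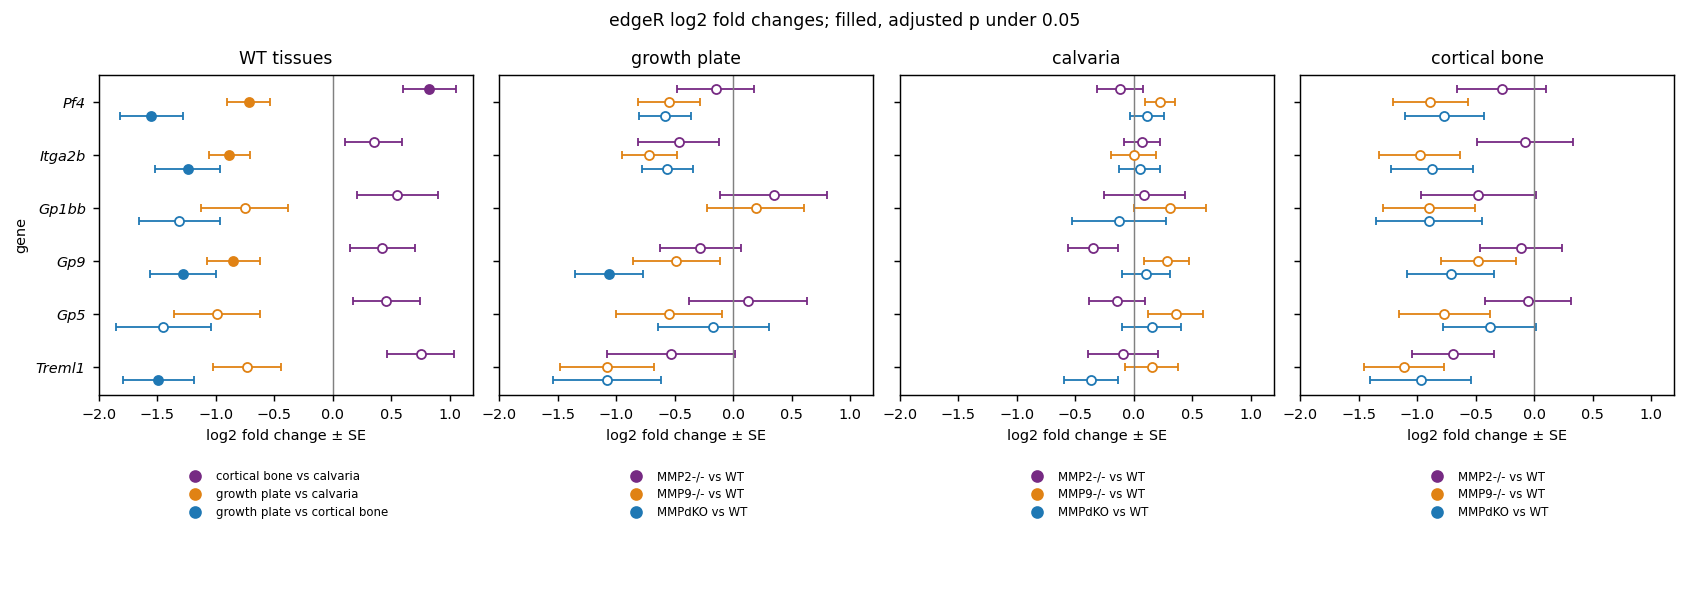
Log2 fold changes with SE for the 6 genes with enough counts, in the 3 comparisons of WT tissues and in each genotype against WT within a tissue (same scale in all panels), filled where the adjusted p was under 0.05. The growth plate values lie left of 0 in WT (Pf4 at -1.55 against cortical bone), and among the genotypes the filled point is Gp9 in the MMPdKO growth plate at -1.06.

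The libraries of a mouse could also be set against each other in each genotype. Pf4 and Itga2b were lower in the growth plate than in the calvaria in 24 of 24 mice that gave both tissues, 6 of them WT and 18 knockouts. In the 18 knockout mice the mean difference was -1.32 on the log2 CPM scale for Pf4 (range -2.39 to -0.09) and -1.53 for Itga2b (range -3.64 to -0.14). Gp9 was lower in 17 of 18 knockout mice and in 5 of 6 WT mice. Treml1 was also lower in 17 of the 18, and Gp5 in 16 of 18. Gp1bb was lower in 11 of 18 knockout mice and 3 of 6 WT mice, Gp6 in 12 of 18 and 3 of 6, and Ppbp in 7 of 18 and 3 of 6. These knockout libraries took no part in the WT tests above, except in the fit of all 80 libraries.

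Against the cortical bone, Gp9 was lower in the growth plate in 14 of 14 knockout mice, and Pf4 and Itga2b in 13 of 14. Treml1 was lower in 11 of these 14 mice, Gp5 in 10, Gp1bb in 9 and both Gp6 and Ppbp in 8. In the WT mice Pf4, Treml1 and Gp6 were lower in 6 of 6, Itga2b, Gp1bb and Gp5 in 5 of 6, and Gp9 and Ppbp in 4 of 6. Cortical bone and calvaria had no single order. Pf4 was higher in the cortical bone in 3 of 5 WT mice and in 5 of 15 knockout mice, and Itga2b in 3 of 5 and in 3 of 15. Pf4 was higher in 3 of 5 MMP2-/- mice and in 1 of 5 each of the MMP9-/- and MMPdKO mice. The genotypes were not shown to differ in this: the difference between tissues passed for no member in any genotype against WT (adjusted p of Pf4 = 1.0 for MMP2-/-, 0.537 for MMP9-/- and 0.698 for MMPdKO, edgeR).

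**Figure D3:**
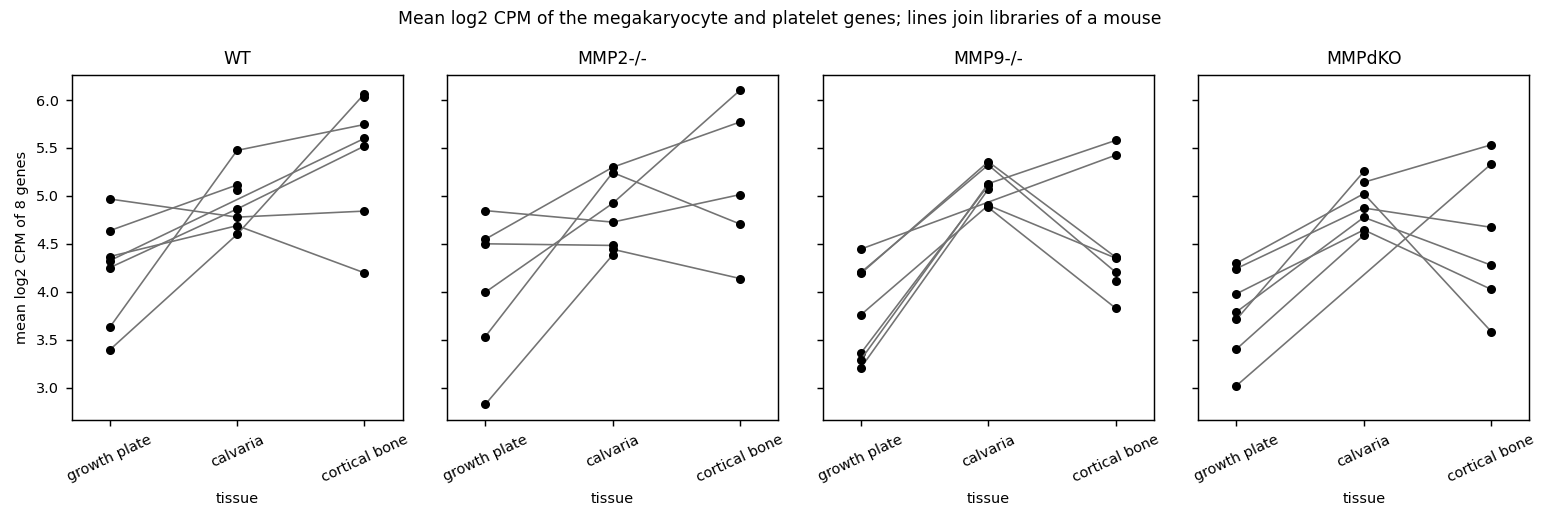
Mean log2 CPM of the 8 genes in each library, by tissue and genotype, with lines joining the libraries of a mouse. Points rise from growth plate to calvaria in most mice (the mean was lower in the growth plate in 16 of 18 knockout mice and 5 of 6 WT mice), while the cortical bone points of MMP9-/- and MMPdKO lie on both sides of the calvaria points.

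In the growth plate, the MMPdKO changed 1 of 5 tested members. Of all 8965 genes, 9.27% passed and 5.40% passed as lower, so that 1 of 5 stands beside a high background. Gp9 spanned 7.31 to 39.1 CPM in the MMPdKO (mean 19.0 ± 10.6) and 21.4 to 68.3 CPM in WT (mean 42.3 ± 14.8). It was lower by 2.09-fold (log2 -1.06, SE 0.290, adjusted p = 0.0281), and 5 of 7 MMPdKO libraries lay below every WT library. Pf4 (log2 -0.58) and Itga2b (log2 -0.56) both had an adjusted p of 0.107, Treml1 had a log2 value of -1.08 (adjusted p = 0.147) and Gp5 one of -0.17 (adjusted p = 0.866). The call of Gp9 was lost on leaving out any of 6 libraries (WT replicates 1, 3, 5 and 6, MMPdKO replicates 3 and 7), with adjusted p up to 0.0699, and in a fit of all 80 libraries (adjusted p = 0.0923).

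Markers of other blood cells were lower in the same libraries. In the MMPdKO growth plate 11 of 14 erythroid, 11 of 13 neutrophil and 9 of 12 B cell markers passed as lower than in WT, with medians of -1.15, -1.17 and -1.17 on the log2 scale. Their summed levels were 11600 to 70800 CPM against 56800 to 146000 CPM for erythroid, 665 to 3630 against 3420 to 9660 for neutrophil and 185 to 778 against 1100 to 2180 for B cell markers. None of these markers was at 0 over a whole group. The mean log2 CPM of the neutrophil markers was 4.886 to 6.829 in MMPdKO libraries and 6.778 to 8.183 in WT libraries. As a covariate it nearly coincided with genotype, and the 2 could not be told apart. The number of all genes passing fell from 831 to 4 in that fit. No member passed in it and 3 of 5 turned sign, with Gp9 at 0.07 (adjusted p = 0.993), Treml1 at 0.04 and Gp5 at 1.07 (SE 0.683). Pf4 then stood at -0.03 and Itga2b at -0.17. The part of these blood cells in the value of Gp9 was not tested. Of 7 tested endothelial markers, 4 were higher (median 0.72).

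In the MMP9-/- growth plate, 0 of 6 tested members passed in edgeR, beside 0.463% of all 10160 genes, and 0 passed in DESeq2. An unadjusted p under 0.05 in edgeR was found for 2 members, beside 1836 of all 10160 genes. Itga2b was at 22.9 to 53.0 CPM (median 33.1) against 25.7 to 88.6 CPM in WT, and 7 of 7 MMP9-/- libraries lay below the WT median (log2 -0.72, SE 0.235, adjusted p = 0.115). Treml1 was also below the WT median in 7 of 7 libraries (log2 -1.08, adjusted p = 0.164). The erythroid, neutrophil and B cell markers all had negative values in this comparison (14 of 14, 14 of 14 and 12 of 12), of which 1, 2 and 0 passed. Their medians were -0.999, -1.0 and -0.92. With the neutrophil covariate Gp9 went from -0.48 to 0.34, Gp5 from -0.55 to 0.12 and Pf4 from -0.55 to -0.08. No member passed in that fit, and the number of all genes passing fell from 47 to 2. The part of these cells was not tested. In the MMP2-/- growth plate 0 of 6 members passed in edgeR, beside 0.0515% of all 9717 genes, with 0 at an unadjusted p under 0.05 and 0 in DESeq2. Pf4 was at 47.1 to 237 CPM there (log2 -0.15, SE 0.330).

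In the calvaria, no member passed in any knockout. In edgeR 0 of 6 members passed in the MMP2-/- (0.196% of all 9711 genes did), 0 of 6 in the MMP9-/- (0.0778% of 10282) and 0 of 7 in the MMPdKO (0.0292% of 10272). No member had an unadjusted p under 0.05 in any of the 3, and DESeq2 called 0 as well. Pf4 spanned 93.7 to 398 CPM in MMP2-/- (median 241), 219 to 375 CPM in MMP9-/- (median 330) and 212 to 356 CPM in MMPdKO (median 330). Its log2 values were -0.12 (SE 0.197), 0.23 (SE 0.130) and 0.12 (SE 0.145). Itga2b had values of 0.07, -0.00044 and 0.05 with SEs of 0.151 to 0.195. The calvaria was also the tissue with the smallest spread, with an SD of 0.288 for the mean log2 CPM of the 8 genes within groups, against 0.577 in the growth plate and 0.728 in the cortical bone.

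In the cortical bone no knockout had a member that passed, while all 6 tested members had negative values in the MMP9-/- and in the MMPdKO. In edgeR 0 of 6 passed in the MMP9-/- (0.0215% of all 9311 genes did), 0 of 6 in the MMPdKO (0.0221% of 9035) and 0 of 7 in the MMP2-/- (0.0537% of 9305). An unadjusted p under 0.05 was found for 4 members in the MMP9-/- (879 of all genes), 3 in the MMPdKO (987 of all) and 0 in the MMP2-/- (500 of all). DESeq2 called 0 in each. Pf4 spanned 105 to 470 CPM in MMP9-/- (median 196) and 128 to 531 CPM in MMPdKO (median 239), against 199 to 741 CPM in WT (median 492). All 7 MMP9-/- libraries lay below the WT median (log2 -0.89, SE 0.319, adjusted p = 0.425), as did 5 of 6 MMPdKO libraries (log2 -0.77, SE 0.338, adjusted p = 0.432). Itga2b had log2 values of -0.98 (SE 0.346, adjusted p = 0.413) and -0.88 (SE 0.353, adjusted p = 0.411), and Treml1 of -1.11 (adjusted p = 0.366) and -0.97 (adjusted p = 0.435). Of the WT cortical bone libraries, replicates 6 and 7 had the highest mean log2 CPM of the 8 genes (6.065 and 6.028). Both came from mice whose label ends in 20, an ending that only WT mice carry.

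The 5 MMP2-/- cortical bone libraries of Pf4 spanned 129 to 741 CPM (median 297), which covers the whole WT range (log2 -0.28, SE 0.377). The neutrophil markers had medians of 0.06 in the MMP2-/-, -0.05 in the MMP9-/- and -0.32 in the MMPdKO, and the erythroid markers -0.70, -0.88 and -0.81. With the neutrophil covariate Pf4 in the MMP9-/- was at -0.71 (adjusted p = 0.537) and no member passed. The part of erythroid cells in these values was not tested.

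The effect of each genotype was compared between tissues in a fit of all 80 libraries, in which 7 members were tested. In edgeR 0 of 7 members passed in any of the 9 differences, beside 0% of all 11307 genes in 7 of them, 0.0265% for the MMP9-/- effect in growth plate against calvaria and 0.548% for the MMPdKO effect in growth plate against calvaria. The largest number of members with an unadjusted p under 0.05 was 5, for the MMP9-/- effect in cortical bone against calvaria (Pf4 log2 -1.14, SE 0.440, adjusted p = 0.537). Of all 11307 genes, 975 had such a p there. The same count was 2 for the MMPdKO effect in cortical bone against calvaria, beside 791 of all 11307 genes. It was 1 each for the MMP9-/- and MMPdKO effects in growth plate against calvaria, beside 1631 and 2074 of all genes. In the other 5 it was 0.

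Other genes of the megakaryocyte were taken from 5 lists of 59 genes in all (transcription factors, thrombopoietin signalling, other receptors, granule proteins, signalling and cytoskeleton). Between WT growth plate and cortical bone, 5 of 49 tested genes were lower and 0 higher (median -0.51). Of all genes, 2.21% passed in either direction and 0.611% as lower. Alox12, a platelet lipoxygenase, was at 19.2 ± 6.54 CPM in the growth plate and 50.1 ± 25.6 CPM in the cortical bone (log2 -1.35, adjusted p = 0.0267). P2rx1, an ATP-gated channel of platelets, was lower by log2 -1.33 (adjusted p = 0.0282) and Tbxas1, thromboxane synthase, by log2 -1.07 (adjusted p = 0.0267). Bin2 and Srgn, the granule proteoglycan serglycin, were lower by log2 -0.67 and -0.84, and leukocytes express both.

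Between WT growth plate and calvaria, 2 of 48 listed genes were higher and 2 lower (median -0.25). Of all genes, 5.05% passed in either direction and 2.14% as lower, so these counts stand near the background. Vwf, von Willebrand factor, which endothelial cells also make, was at 30.7 ± 12.4 CPM in the growth plate and 76.8 ± 12.2 CPM in the calvaria (log2 -1.24, adjusted p = 0.000696), and Myl9, a myosin light chain also found in smooth muscle, was lower by log2 -1.22. Serpine2 (log2 1.15) and Gng11 (log2 1.11) were higher. Between WT cortical bone and calvaria, Itgb3, the beta chain that pairs with the Itga2b product and is also made by osteoclasts, was at 226 ± 42.7 against 139 ± 21.3 CPM (log2 0.67, adjusted p = 0.00846). Srgn (log2 0.80) and Gng11 (log2 0.81) were higher as well, and Stim1 was lower (log2 -0.72), so that 3 of 50 were higher and 1 lower (median 0.31). Here 5.37% of all genes passed in either direction, near the count of listed genes in either direction. As higher, 1.79% of all genes passed, a smaller share than the 3 of 50 listed genes, which are few.

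In the MMPdKO growth plate, 9 of 40 listed genes were lower and 1 higher (median -0.15). Of all genes, 9.27% passed in either direction and 5.40% as lower. Of 9 tested transcription factors 6 were lower, all of them also expressed in erythroid or other blood progenitors. Nfe2 was at 55.5 ± 23.4 CPM in the MMPdKO and 156 ± 48.0 CPM in WT (log2 -1.42, adjusted p = 0.00295), Gata1 at 23.3 ± 11.8 against 71.2 ± 23.4 CPM (log2 -1.55, adjusted p = 0.00489), Zfpm1 at 147 ± 39.0 against 305 ± 77.0 CPM (log2 -1.02, adjusted p = 0.00489) and Tal1 at 31.0 ± 18.6 against 79.8 ± 30.5 CPM (log2 -1.28, adjusted p = 0.0176). Fermt3, the kindlin of blood cells, was lower by log2 -0.77, Fcer1g by -0.52 and Srgn by -1.04. Esam, an adhesion molecule that endothelial cells also carry, was higher (log2 0.78, adjusted p = 0.00935). In the other 8 genotype comparisons 1 listed gene passed, Itgb3 in the MMP2-/- calvaria (log2 0.62, adjusted p = 0.0430), where 0.196% of all genes passed.

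Among the members, deviations from the group means went together over the 80 libraries. Pf4 and Gp9 had the highest Pearson r (0.819), followed by Pf4 with Itga2b (0.769), Treml1 (0.753) and Gp5 (0.749). Ppbp was at -0.0141 to 0.257 with the other 7 and Gp6 at 0.131 to 0.552, the 2 genes with a median count of 1. These points share their libraries and depth.

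The same deviations, averaged over the 8 genes, were compared with 12482 other genes that had a count in at least 60 libraries. The 10 most alike were Epb41 (r = 0.806), Fermt3, Tmcc2, Tuba4a, Mkrn1, Alas2, Gpx1, Ighm, Alox12 and Apobec3 (r = 0.772), while the median over all genes was 0.033. Epb41 encodes a protein of the red cell membrane skeleton, Alas2 the first enzyme of haem synthesis in erythroid cells, and Ighm the immunoglobulin mu chain. Fermt3 and Alox12 belong to the platelet lists. Of the first 100 genes, 7 were among the 14 erythroid markers, 3 among 12 B cell markers, 1 among 15 neutrophil markers, 3 among 15 platelet signalling genes and 2 among 10 megakaryocyte transcription factors (Nfe2 at rank 20).

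Averaged over each list, the members followed the erythroid markers with r = 0.729 over the 80 libraries (within tissues, growth plate 0.869, cortical bone 0.809, calvaria 0.124). The r was 0.723 with the B cell markers (growth plate 0.765, cortical bone 0.738, calvaria 0.731). With the neutrophil markers it was 0.607 (growth plate 0.689, cortical bone 0.613, calvaria 0.404). It was -0.593 with osteoblast and osteocyte markers (0.0716 in the calvaria, -0.776 in the cortical bone) and -0.525 with endothelial markers. These are descriptions over libraries that share depth, and many mice gave several of them.

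**Figure D4:**
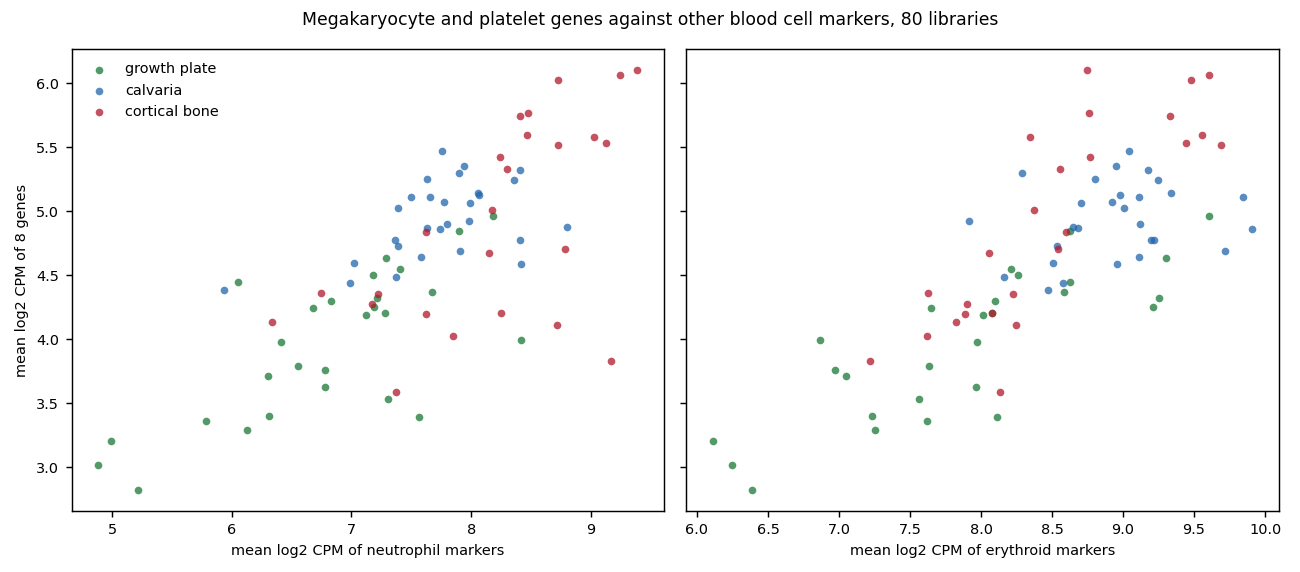
Mean log2 CPM of the 8 genes against that of the neutrophil markers (left) and the erythroid markers (right), 1 point per library, coloured by tissue. The points of growth plate and cortical bone run from low on both axes to high on both axes, while the calvaria points form a narrow band in the values of the 8 genes (deviations from group means had r = 0.124 with the erythroid markers in the calvaria).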

How the data were processed

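Bulk MARS-seq libraries, which tag the 3' ends of transcripts, were made from 30 ng of RNA of 80 samples. Per the labels, the authors used bcl2fastq 2.20.0.422, cutadapt, STAR 2.7.3a, HTSeq and DESeq2 1.26.0 with GRCm38. Whether molecular barcodes were collapsed or strand was used is not given in the sources used here. The authors deposited raw counts, which were used, and normalized counts, which were not. Groups followed the sample labels, which name biological replicates.

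Counts were tested in R 4.3.3 with edgeR 4.0.16 (TMM, quasi-likelihood test, 2 groups per fit, no covariates, genes reaching 15 raw counts in 1 or more libraries), and passed at an adjusted p under 0.05. Log2 CPM used a prior count of 2. DESeq2 1.42.0, RLE size factors, other filters, covariates, blocks, a fit of all 80 libraries and leaving out each library were alternatives. The edgeR step was tested on simulated data with 200 changed genes. Summaries used Python 3.11.15 and pandas 2.3.3. The members and gene lists were chosen with earlier results of these data known. All members are named. Other megakaryocyte genes are named by up to 4 smallest adjusted p per list, and the 10 genes most like the members by r. Limits from counts cover counting error alone.

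Mice are named in the labels, and 5, 6 and 6 WT mice gave both tissues of cortical bone and calvaria, growth plate and calvaria, and growth plate and cortical bone. Deviations of libraries of a mouse correlated at -0.136, -0.0447 and 0.0346 on average. Since the animals are shared, the mouse served as the block in alternative fits, while the reported fits had no block. Thpo, P2ry12, Rgs18, Ahsp, Cpa3 and Ms4a2 were not analysed here. Promoters are from RefSeq (GRCm38.p6), and gene positions from GENCODE M21.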

Additional observations from a re-analysis of the deposited data

Results flagged for a closer look

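Of 96 sets of values (8 genes in 12 groups), 9 held a library far from the others of its group. The nominal rate of the rule is about 1 in 20 for normally distributed values. It was not estimated for sets with few counts, such as those of Ppbp and Gp6. In the WT calvaria, replicate 1 stood apart with Ppbp at 8.68 CPM (5 counts, next value 2.95) and Gp1bb at 27.8 CPM (16 counts, next 14.7), and it is the library whose removal left 1 of 3 calls between growth plate and calvaria. In the WT cortical bone, replicate 5 was low in Gp1bb at 3.55 CPM (2 counts, next 17.6), and it was also the lowest in Pf4, Itga2b, Gp9, Gp5 and Treml1. The shallowest library, MMP9-/- cortical bone replicate 1, held Ppbp at 38.4 CPM, which is 5 counts (next 11.4). Ppbp was high at 5.10 CPM (5 counts) in MMP9-/- growth plate replicate 2 and Gp6 at 5.92 CPM (6 counts) in MMP2-/- growth plate replicate 1. Gp9 was high at 92.7 CPM (73 counts, next 59.0) in MMP2-/- calvaria replicate 3. Treml1 was low at 16.4 CPM (next 21.7) in MMPdKO calvaria replicate 6 and high at 65.1 CPM (39 counts, next 23.4) in MMPdKO cortical bone replicate 2.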

How the results depend on the processing

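RLE size factors, DESeq2, the other filters on low counts and leaving out the haemoglobin genes kept the number of members passing within 1.5 times in all 12 comparisons. The 8 genotype comparisons without a call had 0 calls in every alternative run, and so had the 9 differences of genotype effects between tissues under RLE and without a filter. Between cortical bone and calvaria the count fell from 1 to 0 with the neutrophil covariate, the replicate block by title number, the replicate block by mouse, the same libraries unblocked, without the mice with the label ending 20 and in the fit of all 80 libraries (0 to 1 on leaving out a library). Between growth plate and calvaria it was 0 in the fit of all 80 libraries and 2 with the mouse block (1 to 3 on leaving out a library). Between growth plate and cortical bone it fell from 4 to 0 with the neutrophil covariate, the mouse block, the same libraries unblocked and without the label ending 20, and to 1 with the block by title number (2 to 6 on leaving out a library). In the MMPdKO growth plate it went from 1 to 0 with the neutrophil covariate, the block by title number and the fit of all 80 libraries, and to 2 without the label ending 20, which only WT mice carry (0 to 2 on leaving out a library). With the neutrophil covariate the sign turned for Treml1 (0.0389), Gp9 (0.0658) and Gp5 (1.07) in that comparison, for 3 of 6 members between cortical bone and calvaria, 2 of 6 in the MMP9-/- growth plate, 2 of 6 in the MMP9-/- calvaria and 1 of 7 in the MMPdKO calvaria. In the MMP2-/- cortical bone 4 of 7 turned without the label ending 20. The mouse and label subsets hold fewer samples, and otherwise the cause was not tested. Title numbers 1 to 5 join the same WT mice in growth plate and cortical bone, as does number 6 in cortical bone and calvaria. The other title numbers join different mice and do not pair the samples.

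The number of all genes passing ranged over the alternatives from 62 (mouse block) to 772 between cortical bone and calvaria (530 as reported), from 330 (mouse block) to 592 between growth plate and calvaria (498), from 5 (neutrophil covariate) to 356 (DESeq2) between growth plate and cortical bone (210), from 4 (neutrophil covariate) to 996 in the MMPdKO growth plate (831) and from 2 to 346 (DESeq2) in the MMP9-/- growth plate (47). In the MMP2-/- calvaria it ranged from 8 to 141 (19). In the other 6 comparisons, with 2 to 8 genes, it was 1 to 23. With a prior count of 0.5 the mean log2 CPM of the 8 genes fell by more than its SD in 4 of 12 groups. Of the 10 genes most like the members, 4 were shared when group means were not subtracted and 6 with Spearman's rho. Depth limits Ppbp and Gp6, with a median of 1 count.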
